A study of Homo sapiens with 9 samples.

Results

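The genes described here encode the AKT kinases and the mTOR complexes that they feed: AKT1, AKT2, the upstream kinase PDPK1, the mTOR kinase MTOR, its partners RPTOR, RICTOR and MLST8, the inhibitor DEPTOR, and the AKT substrate GSK3B. A probe set, a group of short probes that reads 1 stretch of a transcript, was taken as a member when the platform annotation gave it exactly 1 gene symbol and that symbol was 1 of these 9. This gave 29 of the 54675 probe sets on the array, with 7 for AKT2, 6 for PDPK1, 5 for GSK3B, 4 for RICTOR, 2 each for MTOR and DEPTOR, and 1 each for AKT1, RPTOR and MLST8. Expression was measured on 9 Affymetrix arrays in H69, an established human small cell lung cancer line. The cells were kept for 24 h in complete medium with the vehicle DMSO (control, 3 arrays, for which the protocol names DMSO while the treatment field reads none), with PIK75 at 100 nM (3 arrays) or with TGX221 at a labelled 1 mM (3 arrays). Both compounds inhibit phosphoinositide 3-kinases (PI3K): PIK75 is known as an inhibitor of the p110α isoform and TGX221 as one of p110β. The labelled doses differ, and whether the unit given for TGX221 is right cannot be told from the files. All groups are the same line in the same medium, with no other treatment named.

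PI3K makes a membrane lipid that recruits AKT and PDPK1, and PDPK1 then phosphorylates AKT in its activation loop. Active AKT phosphorylates many proteins, among them GSK3B, which it inhibits, and it relieves the brake on mTORC1, the complex of MTOR with RPTOR and MLST8 that promotes translation. The second complex, mTORC2, holds MTOR with RICTOR and MLST8 and adds a further phosphate to AKT, while DEPTOR binds MTOR in both complexes and restrains it. This regulation acts on proteins and their phosphorylation, whereas the arrays read transcript levels only.

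With PIK75, the transcript of the mTOR inhibitor DEPTOR was 4.84-fold lower than in control, the largest measured difference among the 29 probe sets, although its PIK75 level lay under the bound used below as a guide to background, so that the size of this fold is uncertain. GSK3B was 2.05-fold lower in its brightest probe set and 2.93-fold in the next, whose PIK75 level was also under that bound, and RICTOR, the defining subunit of mTORC2, was 1.58-fold lower in its brightest. AKT2 was 1.35-fold lower in its brightest probe set, but 4 dim probe sets of it were higher and its mean over all 7 did not pass. MTOR was 1.18-fold lower in the brighter of its 2 dim probe sets, and its mean over both did not pass. PDPK1 was 1.25-fold higher in its brightest probe set as deposited. Scaled on poly-A spike-in RNA that difference was 0.24 instead of 0.32 log2 units and no longer passed (adjusted p = 0.0557), and scaled on hybridization spike-in RNA it was -0.033. AKT1, RPTOR and MLST8 did not pass the test. With TGX221, no probe set of the 9 genes passed.

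Values are log2 expression values as deposited, and differences between groups are in log2 units, so that 1 unit is a doubling. Of the 29 probe sets, 19 passed the test between PIK75 and control (adjusted p below 0.05), 10 higher and 9 lower, where 50.2% of the 54613 probe sets tested passed, 30.3% higher and 19.9% lower. In 20 of the 29 the 3 PIK75 arrays lay apart from the 3 control arrays, as they did in 57.5% of all probe sets. The median difference of the members was 0.034, beside 0.084 over all probe sets tested. Counted on the brightest probe set of each gene, 5 of the 9 genes fell and 1 rose, beside 24.7% and 33.3% of the 19775 genes read that way. Of these brightest member probe sets only that of MTOR was dim, as defined below. Of all probe sets that were not dim, 42.1% were lower and 30.2% higher, so the falls are also to be read beside that share. The labels tell arrays of 1 group apart by a number and name no cultures, so the p-values rest on array-to-array spread that could be purely technical, and so few arrays limit the precision.

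**Figure D1:**
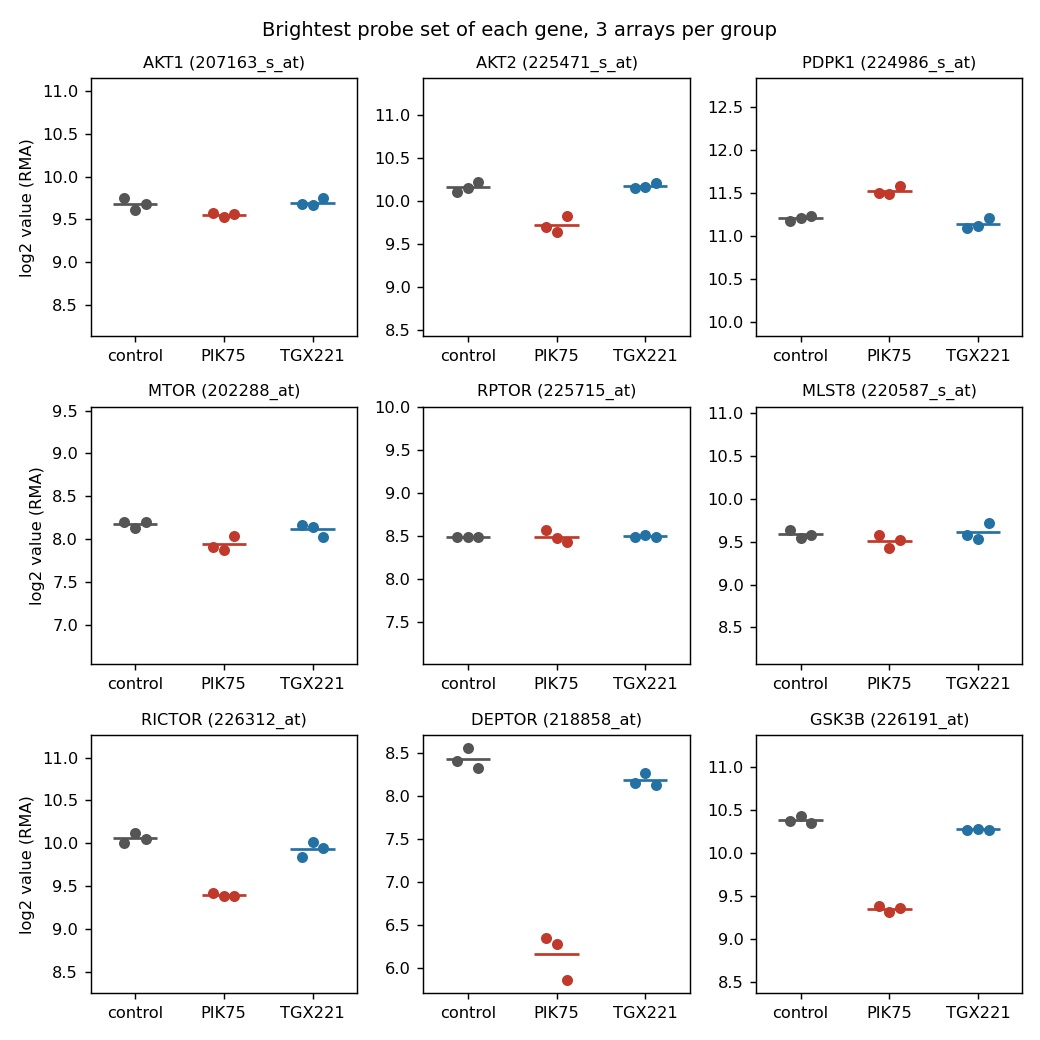
Log2 value (RMA) of the brightest probe set of each of the 9 genes on every array, with 3 arrays for control, PIK75 and TGX221. Points are arrays, lines are group means, and every panel spans 3 log2 units around its own centre. The PIK75 arrays lie below all control arrays for DEPTOR, GSK3B, RICTOR, AKT2, MTOR and AKT1 and above them for PDPK1, as deposited, although the difference in AKT1 did not pass the test.

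GSK3B and RICTOR, whose brightest probe sets fell most among the members with such an entry, and PDPK1, the 1 gene whose brightest probe set was higher, are shown here with the 250 bases before their RefSeq transcript start, so that the starts of genes that moved apart can be compared. The sequences are from RefSeq (GRCh38.p14), 5′ to 3′ on the strand of the gene. Capitals mark GC boxes (GGGCGG) and CCAAT boxes (CCAAT), found by letters on both strands. The coordinates are chr3:120094448-120094697 (minus strand), chr5:39074400-39074649 (minus strand) and chr16:2537771-2538020 (plus strand).
GSK3B: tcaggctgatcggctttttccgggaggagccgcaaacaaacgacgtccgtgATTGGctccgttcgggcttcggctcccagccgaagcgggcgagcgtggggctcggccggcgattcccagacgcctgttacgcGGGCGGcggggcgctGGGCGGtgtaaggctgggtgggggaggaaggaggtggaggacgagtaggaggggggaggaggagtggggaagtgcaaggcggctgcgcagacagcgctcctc
RICTOR: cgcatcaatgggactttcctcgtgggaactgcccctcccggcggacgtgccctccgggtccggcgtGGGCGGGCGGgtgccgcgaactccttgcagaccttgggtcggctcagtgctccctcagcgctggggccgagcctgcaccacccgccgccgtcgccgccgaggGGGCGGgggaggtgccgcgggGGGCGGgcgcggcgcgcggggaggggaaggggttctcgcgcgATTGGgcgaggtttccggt
PDPK1: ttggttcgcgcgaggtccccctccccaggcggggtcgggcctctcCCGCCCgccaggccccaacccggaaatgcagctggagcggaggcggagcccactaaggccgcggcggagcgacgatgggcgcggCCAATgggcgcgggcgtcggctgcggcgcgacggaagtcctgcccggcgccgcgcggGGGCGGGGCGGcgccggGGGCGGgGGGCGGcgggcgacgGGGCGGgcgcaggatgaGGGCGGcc

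The RefSeq table held such windows for 7 of the 9 genes, with 2 starts each for AKT1 and AKT2, and none for DEPTOR or MLST8. The share of G and C was 68.8% for GSK3B, 76% for RICTOR and 81.6% for PDPK1, against a median of 58% over 35114 windows (quartiles 46.4% and 68%). A GC box was found 2 times in GSK3B, 4 times in RICTOR and 7 times in PDPK1, overlapping ones counted singly, and in 42.6% of all windows. Each of the 3 held 1 CCAAT box, as 32% of all windows held at least 1. The hypoxia response core (ACGTG or GCGTG) was found once in GSK3B and at 2 places in RICTOR and not in the PDPK1 window, beside 43.2% of all windows. The FOXO motif TGTTTAC (2.98% of all windows) and the E-box CACGTG (6.35%) were found in none of the 9 windows of these 7 genes. The TGACG core of the cyclic AMP response element (21.2%) was found in 1 AKT2 window and no other. Of genes that did not pass the test, RPTOR had a window with 47.2% G and C and no GC box. The 2 windows of AKT1, which did not pass either, had 57.2% and 83.2% with 1 and 7 GC boxes. MTOR had 55.6% and 1 GC box, and the 2 windows of AKT2 had 64% and 66% with 1 and 4. Any link between these windows and the differences was not tested.

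Some properties of the arrays bear on small differences. RMA makes arrays alike in distribution, and the interquartile range of the log2 values was 2.54 to 2.58 on the PIK75 arrays, 2.70 to 2.71 on control arrays and 2.67 to 2.69 with TGX221. Hybridization spikes, RNAs added after labelling, differed by 0.35 between PIK75 and control arrays (higher with PIK75), and poly-A spikes, added before labelling, by 0.081. Centring arrays on the hybridization spikes moved the median difference of all probe sets from 0.084 to -0.27 for PIK75 against control. Among the 29 probe sets this changed 10 higher and 9 lower into 0 higher and 19 lower, and centring on the poly-A spikes gave 2 higher and 9 lower. Over all probe sets tested, 16554 were higher and 10846 lower as deposited, 4928 and 11275 on the poly-A spikes, 847 and 37576 on the hybridization spikes, and 8709 and 11908 with cyclic loess. The actin 3′ minus 5′ value, a measure of RNA integrity, was 0.47, 0.54 and 1.13 on PIK75 arrays, the last on replicate 5. It was 0.24 to 0.44 on control arrays, and its part in the differences was examined only by using it as a covariate. The same measure for GAPDH differed less, at -0.0021 to 0.078 on PIK75 arrays and -0.052 to 0.013 on control arrays.

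Counts also differed with the brightness of the probe sets. Probe sets of olfactory receptors, genes hardly used in such cells, served as a guide to background: 95% of these 107 probe sets had a mean log2 value below 8.43. A probe set is called dim here where all 3 group means lie under that bound, as 68.4% of all probe sets do, so that a dim probe set may still hold true signal. Of the members, 17 were dim and 12 were not. With PIK75, 7 of the 17 dim members were higher and 3 lower, beside 30.4% and 9.6% of all dim probe sets. Of the 12 others, 3 were higher and 6 lower, beside 30.2% and 42.1%. A probe set counts among these others when any 1 group mean passes the bound, so a difference between groups bears on this split, and DEPTOR 218858_at is among them through its control mean alone. These counts are therefore a description. Of the olfactory receptor probe sets themselves, 46.7% were higher with PIK75 and 3.74% lower.

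The line carried the markers of its label. All 11 measured neuroendocrine markers were brighter than the bound, with CHGA at a control mean of 12.81, INSM1 at 13.05 and NCAM1 at 12.33. With PIK75, 7 of these 11 fell and 1 rose. Of all probe sets that were not dim, 42.1% were lower and 30.2% higher, and of all dim ones 9.6% and 30.4%. Of markers of other cell types, 6 of 7 fibroblast, 7 of 8 leukocyte, 4 of 6 endothelial, 6 of 8 non-neuroendocrine and 2 of 5 lung epithelial genes were dim. The fibroblast markers rose with PIK75 in 6 of 7 genes (0 fell), with a summed linear signal of 1590 to 1674 on control arrays and 1940 to 2017 on PIK75 arrays, but in 2 of 7 with cyclic loess, 1 on the poly-A spikes and 0 on the hybridization spikes. Of the leukocyte markers 3 rose and 0 fell, and of the endothelial ones 2 rose and 1 fell. Of the non-neuroendocrine ones 3 rose and 1 fell, and of the lung epithelial ones 3 rose and 0 fell. On the hybridization spikes 0 rose in each of these lists. The summed signal was lower with PIK75 for the non-neuroendocrine (1710 to 1842 in control, 1408 to 1438 with PIK75) and endothelial markers (1844 to 1958, 1544 to 1588). It was higher for the leukocyte (951 to 1020, 1113 to 1195) and lung epithelial ones (1519 to 1577, 1717 to 1864). The part of these shifts in the small rises of dim members was not tested.

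DEPTOR, the subunit that restrains mTOR, had the largest difference of all members. Its brighter probe set, 218858_at, had log2 values of 8.42, 8.56 and 8.34 on the control arrays, 6.35, 6.28 and 5.86 on the PIK75 arrays and 8.15, 8.28 and 8.14 on the TGX221 arrays. The PIK75 arrays lay far below both other groups, with replicate 5 the lowest, and the TGX221 arrays just below the control arrays without overlap. The difference between PIK75 and control was -2.28 (SE 0.112, 95% interval -2.52 to -2.03, adjusted p = 2.66e-08). Of all probe sets, 2.84% were called lower by 2-fold or more. The control mean, 8.44 ± 0.12 (SD, n = 3), lay just above the olfactory receptor bound, and the means with PIK75, 6.16 ± 0.27 (SD, n = 3), and TGX221, 8.19 ± 0.077 (SD, n = 3), lay below it. Relative to all probe sets on its array, DEPTOR went from the 69.8th to 73.5th percentile in control to the 21st to 31.5th with PIK75, where values lay near the lower quartiles of the arrays (5.96 to 6.05). This fall passed under all 23 alternative settings tried. The smallest difference, -1.08, came from the mean of its 2 probe sets.

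The other DEPTOR probe set, 234071_at, was among the dimmest of the members. It read 5.31, 5.38 and 5.29 in control and 5.45, 5.42 and 5.49 with PIK75. These 3 PIK75 arrays lay above the control arrays, by 0.12, and the difference did not pass (adjusted p = 0.0542), although it did with a trended and robust spread (0.0405) and without control replicate 3 (adjusted p = 0.046). The tables used here do not place the probe sets within their transcripts.

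The genes whose pattern over the 9 arrays was most like that of DEPTOR were DRAIC, HIBCH, DDX46, KCTD12 and STARD4. Likeness was the root mean square difference, over 9 arrays, of log2 values from which the control mean had been subtracted, and only probe sets that were not dim entered. The difference to DEPTOR was 0.119 log2 units for the long noncoding RNA DRAIC and 0.141 for HIBCH, an enzyme of valine breakdown. It was 0.158 for the splicing helicase DDX46, 0.159 for KCTD12 and 0.16 for the sterol carrier STARD4. Because the PIK75 arrays enter this measure, differences between PIK75 and control close to that of DEPTOR follow from the choice. They ran from -2.28 (HIBCH) to -2.15 (KCTD12).

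In the core of mTORC1, the kinase fell slightly and its partners did not pass. The brighter probe set of MTOR, the kinase itself, read 8.20, 8.13 and 8.21 in control, 7.91, 7.88 and 8.04 with PIK75 and 8.17, 8.15 and 8.03 with TGX221. All 3 PIK75 values lay below the control values, while the TGX221 values overlapped both. The difference between PIK75 and control in MTOR was -0.24 (SE 0.0605, adjusted p = 0.00684). Its second probe set, 215381_at, went from 6.63, 6.69 and 6.56 to 6.82, 6.65 and 6.72 and did not pass (0.10, adjusted p = 0.197), and the mean of both did not pass either (-0.070, adjusted p = 0.205). Both probe sets are dim.

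RPTOR, the scaffold that brings substrates to mTORC1, read 8.49, 8.49 and 8.49 on the control arrays, 8.57, 8.47 and 8.44 with PIK75 and 8.49, 8.51 and 8.49 with TGX221. The groups overlapped. The difference between PIK75 and control was 0.00030, with a 95% interval of -0.11 to 0.11. On the hybridization spikes it passed as lower (-0.35, adjusted p = 0.000302), which is the size of the shift that this centring gives to all probe sets.

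MLST8, a small subunit that both complexes share, read 9.64, 9.54 and 9.58 in control and 9.58, 9.42 and 9.52 with PIK75. These values overlapped, and the difference of -0.080 did not pass (95% interval -0.22 to 0.059, adjusted p = 0.307). With TGX221 MLST8 read 9.58, 9.53 and 9.72. MLST8 likewise passed as lower only on the hybridization spikes (-0.43, adjusted p = 9.52e-05).

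RICTOR fell, in contrast to RPTOR and MLST8, which did not pass. Its brightest probe set, 226312_at, read 10.01, 10.12 and 10.05 in control, 9.42, 9.39 and 9.39 with PIK75 and 9.84, 10.01 and 9.94 with TGX221. The PIK75 arrays lay close together and well below every other array. The difference between PIK75 and control was -0.66 (SE 0.0579, adjusted p = 2.56e-06).

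The next probe sets of RICTOR moved the same way. Probe set 226310_at went from 8.03, 8.19 and 8.05 to 7.37, 7.37 and 7.15 (-0.79, SE 0.0838, adjusted p = 1.18e-05), and 228248_at from 7.43, 7.28 and 7.27 to 6.83, 6.77 and 7.09 (-0.43, SE 0.104, adjusted p = 0.00536). The fourth, 1552734_at, lay between 5.42 and 5.72 on all 9 arrays and did not pass (-0.0036, adjusted p = 0.972). The 3 falls passed as lower on the array median, poly-A spikes, hybridization spikes and cyclic loess, and the mean of the 4 probe sets of RICTOR fell by 0.47 (adjusted p = 1.57e-05).

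PDPK1, the kinase that activates AKT and other kinases of its family, was the member gene that was higher with PIK75. Its brightest probe set, 224986_s_at, read 11.18, 11.21 and 11.23 in control, 11.50, 11.49 and 11.58 with PIK75 and 11.09, 11.12 and 11.21 with TGX221. The PIK75 arrays lay above all others. The difference between PIK75 and control was 0.32 (SE 0.0531, adjusted p = 0.000462).

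Of the 6 PDPK1 probe sets, 5 passed as higher with PIK75. Probe set 204524_at read 9.97, 9.93 and 9.91 in control and 10.37, 10.29 and 10.21 with PIK75, and 32029_at read 9.84, 9.77 and 9.78 and 10.05, 10.08 and 10.24. Neither overlapped. The differences of the 5 ran from 0.26 (244630_at) to 0.35 (204524_at), and 244629_s_at did not pass (0.091, adjusted p = 0.201). On the hybridization spikes none was higher: the 5 differences lay between -0.089 and -0.00080 and none passed. On the poly-A spikes only 204524_at passed (0.27, adjusted p = 0.0238), with the brightest at 0.24 (adjusted p = 0.0557). With the array median 5 passed as higher and with cyclic loess 3. The call of 244630_at was also lost without control replicate 3 (adjusted p = 0.0545) or PIK75 replicate 3 (adjusted p = 0.05003). The RefSeq gene table also lists a pseudogene of PDPK1 named PDPK2P, and the share of the signal that it gives was not tested.

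Of the AKT kinases, AKT1, the most widely used isoform, did not pass the test. It read 9.76, 9.61 and 9.67 in control, 9.57, 9.53 and 9.56 with PIK75 and 9.68, 9.66 and 9.75 with TGX221. The PIK75 arrays lay just below the control arrays. The difference of -0.13 did not pass (95% interval -0.24 to -0.0099, adjusted p = 0.0667), but it passed as lower with arrays centred on the median (-0.18, adjusted p = 0.0147), on the hybridization spikes (-0.48), with 1 mean value per gene (adjusted p = 0.0333), with dim probe sets left out (adjusted p = 0.0428) and without control replicate 3 (adjusted p = 0.0457).

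AKT2, the isoform best known for its part in insulin-driven glucose uptake, was lower in its 2 bright probe sets. Probe set 225471_s_at read 10.10, 10.16 and 10.22 in control, 9.70, 9.64 and 9.83 with PIK75 and 10.16, 10.17 and 10.21 with TGX221. The PIK75 arrays lay below all others, and the difference from control was -0.44 (SE 0.0603, adjusted p = 0.000106). Probe set 226156_at went from 9.42, 9.42 and 9.42 to 9.29, 9.21 and 9.02 (-0.25, adjusted p = 0.0149), and it did not pass without PIK75 replicate 5 (-0.17, adjusted p = 0.0534) or with the actin covariate (-0.12, adjusted p = 0.27).

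The 5 dim probe sets of AKT2 did not follow. With PIK75, 4 of them passed as higher: 203809_s_at by 0.40, 211453_s_at by 0.32, 236664_at by 0.28 and 203808_at by 0.25. Probe set 203809_s_at read 7.93, 7.67 and 7.67 in control and 8.03, 8.21 and 8.24 with PIK75, and 211453_s_at read 7.005, 7.001 and 6.95 and 7.25, 7.26 and 7.42. The groups lay apart in 3 of the 4 and overlapped in 203808_at. The fifth, 1560689_s_at, did not pass (0.034, adjusted p = 0.604). On the hybridization spikes none of the 4 passed as higher, and on the poly-A spikes 203809_s_at alone did (0.32, adjusted p = 0.00785). Probe sets 203808_at and 236664_at also did not pass on the array median (adjusted p = 0.108 and 0.0623). The same held with cyclic loess (0.297 and 0.232) and with the actin covariate (0.337 and 0.176). The call of 203808_at was lost without any 1 of 6 arrays (control replicates 1, 3 and 5, PIK75 replicates 3 and 5, TGX221 replicate 5; adjusted p = 0.0585 to 0.163), and that of 236664_at without control replicate 3 (0.0881) or PIK75 replicate 5 (0.08). The mean of all 7 probe sets of AKT2 was 0.086 higher with PIK75 and did not pass (adjusted p = 0.129).

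GSK3B, the kinase that phosphorylates glycogen synthase, β-catenin and many other proteins, fell strongly in its 2 bright probe sets. Probe set 226191_at read 10.38, 10.44 and 10.35 in control, 9.38, 9.31 and 9.36 with PIK75 and 10.28, 10.28 and 10.28 with TGX221. The PIK75 arrays lay about 1 log2 unit below the control arrays and formed a narrow group. The difference was -1.04 (SE 0.0489, 95% interval -1.14 to -0.93, adjusted p = 2.02e-08).

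The second bright probe set, 226183_at, read 9.07, 9.003 and 8.90 in control, 7.61, 7.24 and 7.47 with PIK75 and 8.68, 8.70 and 8.59 with TGX221. The difference between PIK75 and control was -1.55 (SE 0.0844, adjusted p = 5.5e-08), with no overlap between any of the 3 groups. Its PIK75 mean of 7.44 lies under the olfactory receptor bound of 8.43. The intervals of these 2 falls in GSK3B, -1.14 to -0.93 and -1.73 to -1.37, do not overlap.

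None of the 3 dim probe sets of GSK3B passed as lower as deposited. Probe set 209945_s_at read 8.30, 8.43 and 8.21 in control and 8.18, 8.22 and 8.20 with PIK75, and it did not pass (-0.11, 95% interval -0.25 to 0.030, adjusted p = 0.169). It passed as lower with cyclic loess (-0.20, adjusted p = 0.0262) and on the hybridization spikes (-0.46, adjusted p = 9.53e-06). Probe set 240562_at passed as higher (0.26, adjusted p = 0.0121), but not on the poly-A spikes (0.18), the hybridization spikes (-0.091), cyclic loess (0.13) or with the actin covariate (0.15). Probe set 242336_at did not pass (0.10, adjusted p = 0.294). It passed as higher without PIK75 replicate 1 (0.19, adjusted p = 0.0434) and as lower on the hybridization spikes (-0.25, adjusted p = 0.00987). A fall of 1 log2 unit or more in GSK3B therefore appeared in 2 of its 5 probe sets.

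**Figure D2:**
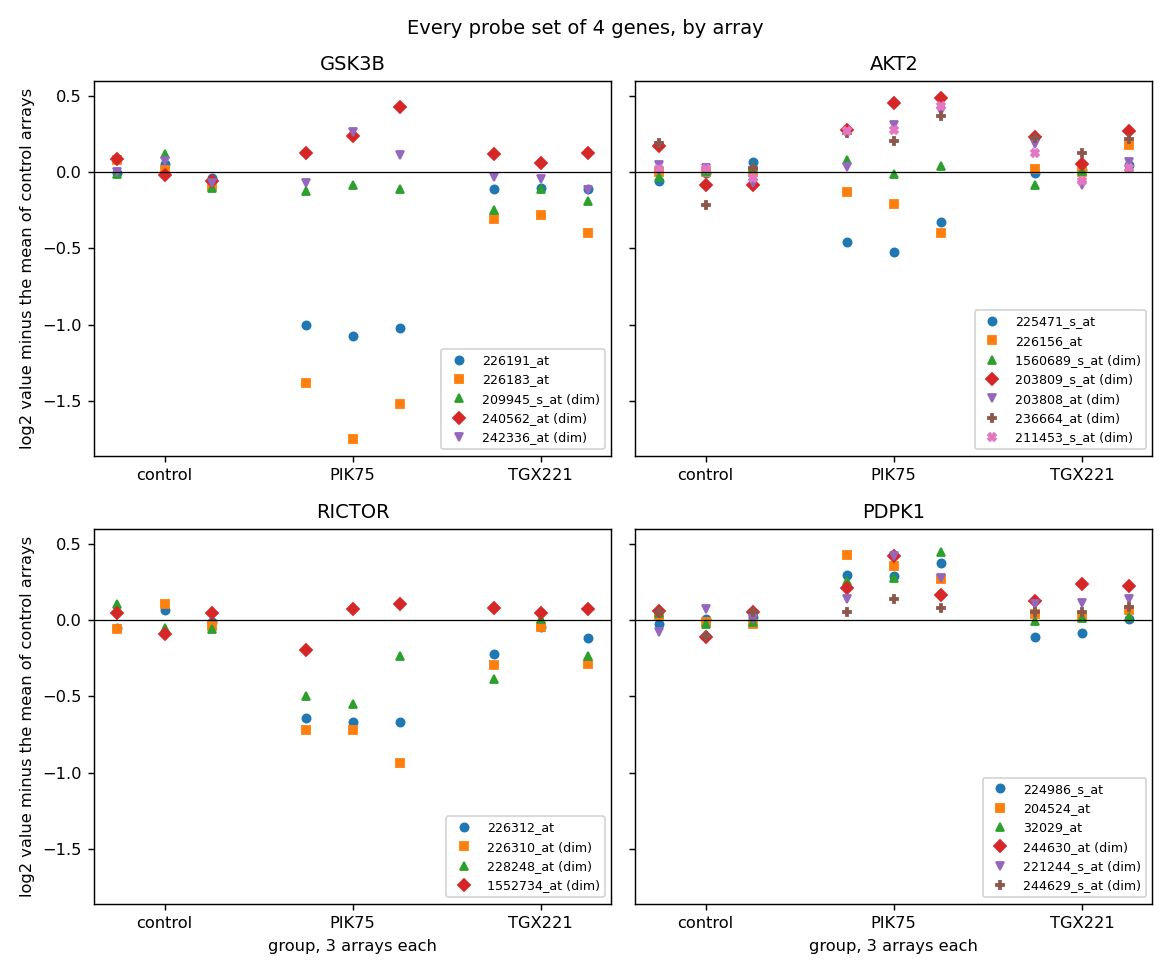
Every probe set of GSK3B, AKT2, RICTOR and PDPK1 on every array, as the log2 value minus the mean of the 3 control arrays (vertical axis), by group (horizontal axis, 3 arrays each). The 2 bright GSK3B probe sets lie 1.0 log2 unit or more below control with PIK75 while 240562_at lies above it, AKT2 splits into 2 lower and 4 higher probe sets, 3 of 4 RICTOR probe sets fall, and 5 of 6 PDPK1 probe sets are higher as deposited but not with arrays centred on hybridization spikes.

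With TGX221, 0 of the 29 probe sets passed by limma, 8 had an unadjusted p below 0.05, and the 3 arrays lay apart from control in 8 (4 higher, 4 lower). Over all probe sets tested, 0.269% passed (0.207% higher and 0.0623% lower), 16.4% had an unadjusted p below 0.05, and the arrays lay apart in 21.6%. Differences of the members ran from -0.33 to 0.19, and their median was 0.017, beside 0.0014 over all probe sets. The TGX221 and PIK75 comparisons share the control arrays, so a difference between those arrays and the rest enters both.

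The lowest TGX221 value belonged to GSK3B. Its probe set 226183_at lay below control on all 3 TGX221 arrays, with a difference of -0.33 (95% interval -0.51 to -0.15, adjusted p = 0.0985), and it passed with array weights (-0.35, adjusted p = 0.036) and on the hybridization spikes (-0.39). Probe sets 209945_s_at and 226191_at of GSK3B also lay below control on all 3 arrays (-0.18 and -0.11, adjusted p = 0.19 and 0.292). The difference in DEPTOR was -0.25 (95% interval -0.49 to -0.0057, adjusted p = 0.293).

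The difference in RICTOR with TGX221 was -0.13 in its brightest probe set, with an interval of -0.25 to -0.0012, and the arrays overlapped those of the control. For AKT1 the difference was 0.015 (interval -0.10 to 0.13), for AKT2 0.017 (-0.11 to 0.15) and for PDPK1 -0.063 (-0.18 to 0.053). For MTOR it was -0.064 (-0.20 to 0.068), for RPTOR 0.0069 (-0.10 to 0.12) and for MLST8 0.023 (-0.12 to 0.16). The TGX221 and control arrays overlapped in all 7 of these probe sets.

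**Figure D3:**
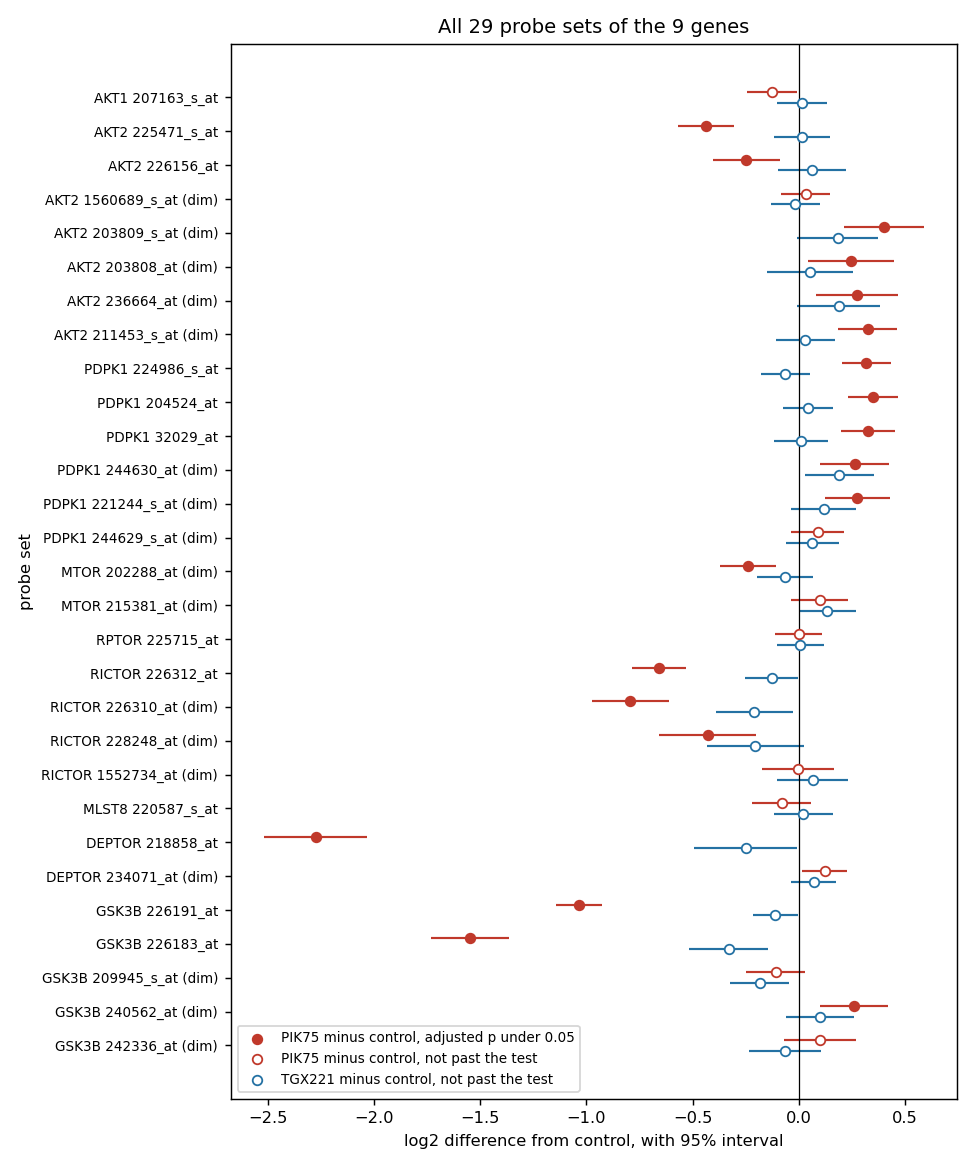
Log2 difference from control for all 29 probe sets, with PIK75 in red and TGX221 in blue and lines for 95% intervals. Filled points passed the test (adjusted p below 0.05). DEPTOR 218858_at, 2 GSK3B probe sets and 2 RICTOR probe sets lie farthest to the left with PIK75, and no TGX221 point is filled.

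PIK75 arrays were also set directly against TGX221 arrays, which leaves the control arrays out of the difference. The labelled doses differ, so this compares the 2 treatments as given and not the compounds at a matched dose. Of the 29 probe sets 12 passed, 4 higher with PIK75 and 8 lower, beside 37.2% of all probe sets (20.3% higher and 16.9% lower). DEPTOR was lower with PIK75 than with TGX221, with a difference of -2.03 (SE 0.112, adjusted p = 7.97e-08).

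GSK3B was lower as well, with differences of -0.93 in 226191_at and -1.22 in 226183_at (adjusted p = 5.9e-08 and 4.4e-07). The differences in RICTOR were -0.53 and -0.58 in its 2 brightest probe sets (adjusted p = 1.89e-05 and 0.000173), and those in AKT2 -0.45 and -0.31 (adjusted p = 9.12e-05 and 0.00553). The difference in MTOR was -0.17 (adjusted p = 0.04), a call lost without any 1 of 6 arrays (control replicates 1 and 5, PIK75 replicates 1 and 3, TGX221 replicates 2 and 3; adjusted p = 0.0503 to 0.13) and with the replicate number as a block (-0.15, adjusted p = 0.194). The 4 higher ones were 3 probe sets of PDPK1 and 211453_s_at of AKT2, and none of the 4 passed as higher on the poly-A or the hybridization spikes. Without PIK75 replicate 1 the count of higher probe sets rose from 4 to 9.

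The other genes of the pathway were examined by list, each gene by its brightest probe set. Some genes are in several lists, among them AKT1S1, TSC2, RPS6KB1, GSK3A, CSNK1A1 and BTRC, so the lists are not separate counts. The list of other parts of the mTOR complexes also holds the assembly factors TELO2, TTI1 and TTI2. These recur in the list of chaperones and assembly factors. Over all genes read that way 33.3% were higher and 24.7% lower with PIK75, as deposited, and the median difference between PIK75 and control was 0.088. Dim genes were 4 of 7 in the other parts of the mTOR complexes. They were the minority in every other list, such as 2 of 19 AKT substrates. Of all probe sets that were not dim, 30.2% were higher and 42.1% lower, so the counts of falls below are also to be read beside that share. With TGX221, 0 genes of the 9 lists passed, where 0.278% of genes were higher and 0.0455% lower. Of the other parts of the mTOR complexes, 2 of 7 fell and 0 rose with PIK75 (median 0.017). These were TTI2, which helps to assemble mTOR (-0.40, adjusted p = 0.00125), and AKT1S1, the PRAS40 subunit that restrains mTORC1 (-0.25, adjusted p = 0.0369). MAPKAP1, the SIN1 subunit of mTORC2, did not pass (0.11, adjusted p = 0.114), but was higher with cyclic loess (0.18) and lower on the hybridization spikes (-0.24).

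AGC kinases, a family of which PDPK1 phosphorylates many but not all members, had 7 of 17 lower and 4 higher (median -0.11). Protein kinase C α, PRKCA, went from a mean of 9.95 to 7.68 (-2.27, adjusted p = 8.31e-10), close to the difference in DEPTOR. The kinase RPS6KA5, known as MSK1, fell by 1.51 and PRKCB fell by 0.99. Phosphatases and other restraints of AKT had 7 of 17 lower and 6 higher (median -0.025). The lipid phosphatase INPP4A fell (-1.45, adjusted p = 2.66e-08), while the pseudokinase TRIB3 (1.41) and the lipid phosphatase INPP5E (0.96) rose.

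Of direct substrates of AKT 10 of 19 fell and 6 rose (median -0.25). The cell cycle inhibitor CDKN1A fell (-0.84), as did TBC1D1, which acts in glucose transport (-0.64), and TSC2, the brake on mTORC1, rose (0.66, adjusted p = 6.59e-07). Of direct substrates of mTOR 4 of 14 fell and 3 rose (median 0.036). EIF4EBP1, a repressor of cap-dependent translation, rose (0.47, adjusted p = 1.69e-05) but did not pass on the hybridization spikes (0.11, adjusted p = 0.172). Its relative EIF4EBP2 fell (-0.33, adjusted p = 0.000277). The kinase of ribosomal protein S6, RPS6KB1, fell (-0.49), and so did LPIN1 (-0.43).

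Upstream brakes and the switch of mTORC1 had 7 of 17 higher and 5 lower (median 0.16). The falls included TBC1D7, the third subunit of the TSC complex (-1.11, adjusted p = 2.04e-08), PRKAA1, a catalytic subunit of the energy sensor AMPK (-1.68), and SESN3, a stress-induced inhibitor of mTORC1 (-1.82). Genes of the same families moved in both directions as deposited. SESN1 fell (-0.65), SESN2 rose (0.62, adjusted p = 1.7e-05), and PRKAA2 rose (0.31, adjusted p = 0.0196) but did not pass on the poly-A spikes (0.23, adjusted p = 0.0752). Of 9 genes of the machinery that turns over DEPTOR protein, 3 fell and 1 rose (median -0.090). RBX1, the RING subunit of the ubiquitin ligase, fell (-0.59), as did the kinase CSNK1A1 (-0.44). BTRC, the F-box protein that binds DEPTOR, rose (0.37, a dim probe set) and did not pass on the hybridization spikes (0.023, adjusted p = 0.799).

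Partners and substrates of GSK3 had 7 of 18 lower and 4 higher (median -0.054). DPYSL2, a microtubule regulator that GSK3 phosphorylates, fell (-1.48, adjusted p = 2.28e-07), and AXIN1, the scaffold that holds GSK3 in the β-catenin destruction complex, rose (0.38) but did not pass on the hybridization spikes (0.033, adjusted p = 0.695). Chaperones and assembly factors of mTOR had 5 of 11 lower and 1 higher (median -0.16), with RPAP3 (-0.81), RUVBL1 (-0.44) and WAC (-0.40) among the falls.

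On the hybridization spikes the median of all 9 lists was negative, from -0.60 to -0.19, which turns the sign for the upstream brakes, the mTOR substrates and the other parts of the mTOR complexes. The counts moved with it: the brakes then had 3 higher and 9 lower, the AKT substrates 1 and 13, the mTOR substrates 0 and 11, the GSK3 list 0 and 14, and the restraints of AKT 2 and 12. The AGC kinases had 0 higher and 12 lower, the other parts of the mTOR complexes 0 and 7, the DEPTOR turnover list 0 and 8, and the chaperones 0 and 10. The mTOR substrates were also below 0 in the median on the array median (-0.020) and poly-A spikes (-0.045), as were the other parts of the complexes (-0.040 and -0.064), and the median of the GSK3 list was positive with cyclic loess (0.043).

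**Figure D4:**
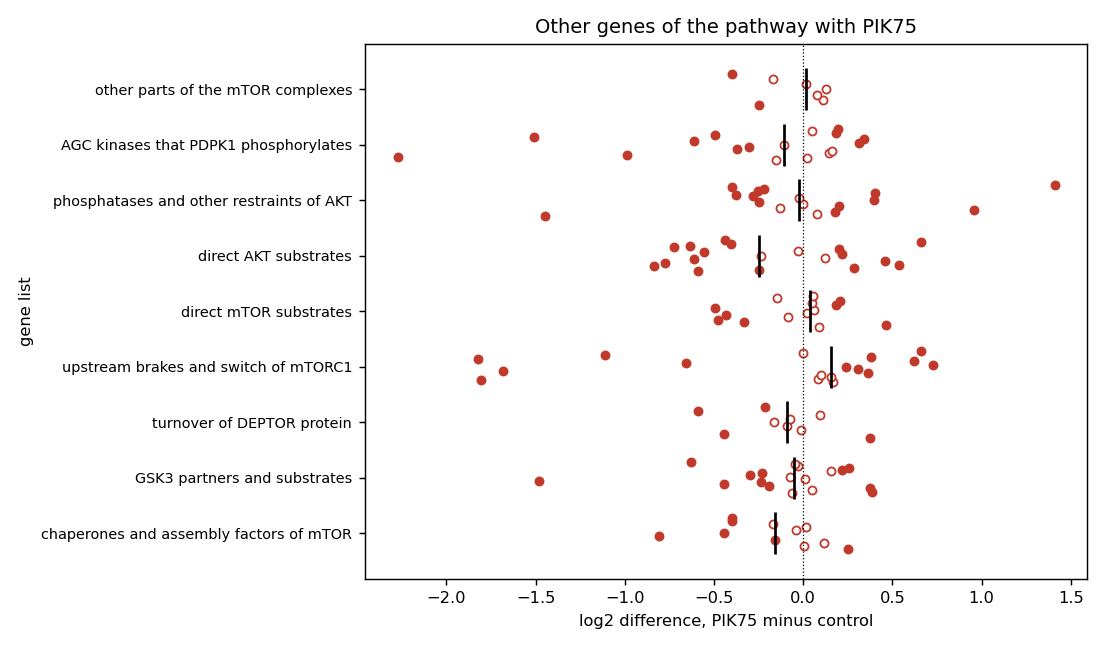
Log2 difference between PIK75 and control for the other genes of the pathway, by list, each gene by its brightest probe set. Filled points passed the test (adjusted p below 0.05), open points did not, and black lines mark the medians, which run from -0.25 for AKT substrates to 0.16 for the upstream brakes as deposited and from -0.60 to -0.19 on the hybridization spikes.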

How the data were processed

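The authors deposited 1 log2 value per probe set and array, made with RMA (version not named) per the submitters' processing notes. These log2 values were used as deposited, with 0 columns unmapped, and no raw files were used. Biotin-labelled cRNA came from 2 ug of total RNA per array, per the labels' protocols. The genome build is not given in the sources used here.

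Of 54675 probe sets, 62 Affymetrix controls were left out and 54613 were tested with limma (lmFit and eBayes; 3 group means over all 9 arrays, 6 residual degrees of freedom, prior 5.63), with Benjamini and Hochberg adjustment over all of them and a threshold of 0.05. Symbols came from the platform annotation: 41091 probe sets carry 1, 1801 several and 11721 none. In simulated data for PIK75 against control over 54613 probe sets, the fit recovered 20 of 50 changes of 1.25-fold, 42 of 50 of 1.5-fold and all 50 of 2-fold, with 10 false calls. Only 50 probe sets were changed per fold, these and 4-fold, with independent normal noise and no shift shared by an array. In the data 50.2% of probe sets passed, so the simulated rates check the fit and do not give the error rates of that comparison.

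The members and the 9 pathway and 6 marker lists were chosen with earlier results of these data known, so their counts are descriptions. All members are named, with the 5 genes most like DEPTOR and, from each list, up to 3 genes called for PIK75 against control with the smallest p. MAPKAP1, EIF4EBP2, SESN1, SESN2, PRKAA2 and the neuroendocrine markers CHGA, INSM1 and NCAM1 fall outside that rule and were picked after their values were seen. Of 184 list entries 174 were measured. The labels give no separate cultures. R 4.3.3, limma 3.58.1, Python 3.11.15, numpy 2.4.6, pandas 2.3.3 and matplotlib 3.10.9 were used. Alternatives were other scalings, filters on dim probe sets, 1 value per gene, the spread, array weights, a replicate block, an actin covariate, a threshold of 0.01 and leaving out each array.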

Additional observations from a re-analysis of the deposited data

How the results depend on the processing

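Over 602 recomputed values of members for PIK75 against control, 521 kept their sign and their side of the threshold, 14 changed sign with neither value passing, 39 no longer passed, 12 newly passed and 16 changed sign where 1 or both values passed. For TGX221 against control the same counts were 566, 34, 0, 2 and 0, and for PIK75 against TGX221 522, 26, 21, 27 and 6. For PIK75 against control, 10 members were higher as deposited, against 6 with the actin covariate, 6 at an adjusted p below 0.01, 5 with cyclic loess, 3 among probe sets above the olfactory receptor bound (where 12 of 29 were tested), 2 on the poly-A spikes and 0 on the hybridization spikes, while lower members went from 9 to 19 on the hybridization spikes. Of brightest probe sets, 1 was higher as deposited and 0 on either kind of spike, and lower ones went from 5 to 8 on the hybridization spikes, in both PIK75 comparisons. For PIK75 against TGX221, 4 members were higher as deposited and 0 on either kind of spike, and lower ones went from 8 to 19 on the hybridization spikes. For TGX221 against control, 1 member, GSK3B 226183_at, was lower with array weights and 1 on the hybridization spikes. Over all probe sets that comparison had 113 higher and 34 lower as deposited, 1219 and 896 with array weights, and 85 and 801 on the hybridization spikes. The cause of the spike differences was not tested. With 17 of 29 members dim, small differences in those probe sets are the least certain, and the PIK75 level of DEPTOR lies low on the scale.

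Values that changed sign on the hybridization spikes, where the value passed there or as deposited, were, for PIK75 against control, AKT2 1560689_s_at (-0.32), 203808_at (-0.10), 211453_s_at (-0.027) and 236664_at (-0.077), DEPTOR 234071_at (-0.23), GSK3B 240562_at (-0.091) and 242336_at (-0.25), MTOR 215381_at (-0.25), RPTOR (-0.35), and PDPK1 204524_at (-0.00080), 221244_s_at (-0.076), 224986_s_at (-0.033), 244629_s_at (-0.26), 244630_at (-0.089) and 32029_at (-0.027). For PIK75 against TGX221 they were AKT2 1560689_s_at (-0.24), DEPTOR 234071_at (-0.23), GSK3B 209945_s_at (-0.21), PDPK1 244629_s_at (-0.26) and 244630_at (-0.22). AKT2 225471_s_at changed sign only for the mean of the probe sets (0.086 against control, 0.011 against TGX221).

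With each array left out in turn, PIK75 against control had 8 to 11 members higher and 8 to 10 lower (1 to 1 and 5 to 6 of the brightest), PIK75 against TGX221 had 4 to 9 and 7 to 9 (1 to 1 and 4 to 5), and TGX221 against control 0 to 0 in both directions. Of all probe sets, TGX221 against control called 0 without control replicate 1, 3 or 5 or TGX221 replicate 2 or 5. It called 0 higher and 1 lower without PIK75 replicate 1 or 3. The counts were 182 and 84 without PIK75 replicate 5, and 510 and 449 without TGX221 replicate 3. The absence of members among these calls is therefore little evidence of stability. The replicate numbers were not taken to pair the arrays. The deviations of same-numbered arrays from their group means correlated at -0.073, 0.093 and -0.00088 for control and PIK75. The values were 0.053 and 0.0053 for control and TGX221, and 0.071 and 0.22 for PIK75 and TGX221. Between arrays of different groups and different numbers they ran from -0.26 to 0.23, a range that holds all the same-numbered values. With the number as a replicate block, 10 members were higher and 9 lower for PIK75 against control, 0 and 0 for TGX221 against control, and 4 and 7 for PIK75 against TGX221. For TGX221 against control that block gave 0 calls over all probe sets.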
